A study of Mus musculus with 31 samples.

Results

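The cholesterol and lipid synthesis genes examined here were 33 of the 52636 gene identifiers measured in the caudate putamen (CPu, the dorsal striatum). They were chosen by name for their place in sterol and fatty acid metabolism, by a rule that uses no measured value, though with earlier results of these data known. The set held 7 genes of the mevalonate pathway, 11 genes from squalene to cholesterol, 5 genes that control the sterol-sensing transcription factors, 1 sterol carrier, 7 genes of fatty acid synthesis and desaturation and 2 sterol exporters. RNA came from punches of the right CPu of 31 mice labelled female, 8 to 11 weeks old, whose strain was given as C57BL/6NTac-Brd1 in all 4 groups. WT mice (n = 8) and mice with a targeted deletion in 1 Brd1 allele (Brd1+/-, n = 7) were administered vehicle (saline), and 8 WT and 8 Brd1+/- mice were administered imipramine (IMN) at 10 mg/kg. IMN is a tricyclic antidepressant and a cationic amphiphilic molecule, a kind of drug known to gather in lysosomes. All mice of all 4 groups had subcutaneous injections on consecutive days and went through behavioral tests before their brains were collected. All Brd1+/- mice came from a single line made by gene targeting with loxP sites, and no region or cell type was named to which the deletion was limited. The question was whether IMN, the Brd1 genotype or both together shifted the RNA of these genes.

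Cells build cholesterol from acetyl-CoA through mevalonate, isoprenoids and squalene. Most enzymes of this route, and several of fatty acid synthesis, are switched on together by the SREBP transcription factors. When sterols are scarce in the membrane of the endoplasmic reticulum, the escort SCAP carries SREBP to the Golgi, where proteases free the active factor, and when sterols are plentiful the INSIG proteins hold the complex back. The adult brain makes its own cholesterol, mainly for myelin and synapses, and astrocytes and oligodendrocytes are known for high activity of the pathway. In such bulk tissue, fewer cells of a type and less RNA per cell cannot be told apart.

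Promoter windows from RefSeq (GRCm38.p6) were found for 25 of the 33 genes by symbol. The 250 bases before each annotated start were searched on both strands for 3 motifs, the sterol response element (letters TCACNCCAC), the CCAAT box (letters CCAAT), to which the SREBP partner NF-Y binds, and the E-box (letters CACGTG), none of which contains another. The sterol response element in these letters was found in 1 of the 25 genes, Hmgcs1, and in 1.05% of all 32851 windows of the same length (1.22% of genes). The CCAAT box was found in 19 of the 25 genes and in 33.85% of all windows (37.49% of genes). It was found in 9 of 9 matched genes from squalene to cholesterol, 5 of 6 of the mevalonate pathway, 4 of 5 of SREBP control and 1 of 4 of fatty acid synthesis. The E-box was found in 6 of the 25 genes and in 6.02% of windows (6.86% of genes). The promoters of 4 genes named in the results are given 5′ to 3′ on the strand of the gene. Motif matches are in capitals, and ATTGG is the CCAAT box on the other strand. Hmgcs1 was taken for its sterol response element, and Mvd as the gene under a p of 0.01 with IMN in both genotypes. Insig1 was taken as the gene under that threshold for the interaction of genotype and IMN. Fasn was taken as the fatty acid synthesis gene under it with IMN in WT mice. None of the 3 passed an FDR of 5% in these comparisons. They lie at chr13:119690109-119690350 (plus strand), chr8:122443423-122443572 (minus strand), chr5:28071191-28071362 (plus strand) and chr11:120824548-120824697 (minus strand), and end before the first exon.
Hmgcs1: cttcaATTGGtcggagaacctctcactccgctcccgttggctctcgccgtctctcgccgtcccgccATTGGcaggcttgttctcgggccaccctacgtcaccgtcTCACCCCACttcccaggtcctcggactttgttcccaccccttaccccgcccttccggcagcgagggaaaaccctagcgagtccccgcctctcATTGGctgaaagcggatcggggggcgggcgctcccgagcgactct
Mvd: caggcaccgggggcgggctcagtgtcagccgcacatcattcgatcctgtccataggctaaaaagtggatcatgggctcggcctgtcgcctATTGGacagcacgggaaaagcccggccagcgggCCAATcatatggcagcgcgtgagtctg
Insig1: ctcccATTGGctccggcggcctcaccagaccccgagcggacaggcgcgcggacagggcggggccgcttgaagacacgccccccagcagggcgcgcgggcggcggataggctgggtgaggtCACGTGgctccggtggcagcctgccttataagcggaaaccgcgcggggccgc
Fasn: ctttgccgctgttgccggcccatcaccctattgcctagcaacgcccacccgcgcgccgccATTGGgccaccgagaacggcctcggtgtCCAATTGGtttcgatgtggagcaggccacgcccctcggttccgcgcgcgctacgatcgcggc
In the Hmgcs1 promoter the sterol response element began 137 bases before the start that RefSeq annotates, between CCAAT boxes at 176 and 45 bases. In the Mvd promoter the CCAAT boxes lay 60 and 27 bases before the start, on opposite strands. In Fasn a pair of CCAAT boxes overlapped head to head, 62 and 59 bases before the start. These matches describe the letters in the windows and no binding was measured.

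Expression was given as TPM, which divides by gene length and gives all mice about the same total, so read depth could not be seen. Brd1 TPM under vehicle averaged 22.5 ± 2.97 (SD, n = 8) in WT and 13.4 ± 2.02 (n = 7) in Brd1+/- mice, and 19.9 ± 2.67 (n = 8) and 12.8 ± 1.04 (n = 8) with IMN, and the genotypes did not overlap under vehicle or with IMN. The punches differed in content. The 10 markers of cortical excitatory neurons summed to between 111 and 1908 TPM in vehicle administered WT mice, against 116 to 309 TPM in vehicle administered Brd1+/- mice, 99.9 to 1111 TPM in WT mice with IMN and 103 to 439 TPM in Brd1+/- mice with IMN. Of the 8 vehicle administered WT mice, 6 (all but mice 6 and 8) lay above every vehicle administered Brd1+/- mouse in the mean of these markers, as did mice 5 and 8 of the IMN administered WT group and mice 4 and 7 of the IMN administered Brd1+/- group. The 10 markers of striatal projection neurons were detected in all mice. They summed to 1256, 276, 3395, 2473 and 4520 TPM in WT vehicle mice 1, 2, 4, 5 and 7. In WT vehicle mice 3, 6 and 8 they summed to 6564, 10042 and 10474 TPM, and in every mouse of the other 3 groups to 5050 TPM or more. The 10 mice above the vehicle administered Brd1+/- group in the cortical markers are called cortex-rich, and each comparison is also given with the cortical markers as a covariate and without these mice, the latter chosen after seeing the data. WT vehicle mouse 7, labelled female, had 26.8 TPM summed over 4 Y-linked genes, where no other mouse exceeded 0.188, and results are given without it where they move.

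All 33 genes were expressed above 3 TPM in every mouse. The most abundant was Scd2, which makes monounsaturated fatty acids and is the main desaturase of brain, at a mean of 398 TPM over all mice. Fads1, a desaturase of polyunsaturated fatty acids (82.8 TPM), and Hmgcs1, the HMG-CoA synthase that feeds the mevalonate pathway (79.1 TPM), followed, and their ranges over mice overlapped. The lowest were Stard4, a soluble sterol carrier (6.92 TPM), Hsd17b7, a sterol ketoreductase (6.62 TPM), and Abca1, which exports cholesterol to lipoproteins (6.06 TPM), and these again overlapped. Among the regulators, Srebf2 (66.6 TPM), which encodes the SREBP with most effect on sterol enzymes, stood above Srebf1 (26.6 TPM), which acts more on fatty acid enzymes, in every mouse of these groups, the lowest Srebf2 value being 51.5 and the highest Srebf1 value 50.0 TPM. Exons of 11 of the 33 genes overlap those of another gene, such as those of Fdft1 and Ctsb, and Scd1 and Scd2 are close paralogs of Scd3 and Scd4, so reads of these genes could have been shared.

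With IMN, a few genes of sterol and fatty acid synthesis were lower in WT mice. Of the 33 genes, 5 were lower and 0 higher at a nominal p under 0.01 in limma, which is 15.2% of the set, where 6.95% of all genes tested were called, 5.6% as lower and 1.35% as higher. They were Mvd and Mvk of the mevalonate pathway and Cyp51 of the sterol route, 3 of the 18 genes of these routes, and the sterol sensor Insig1 and Fasn. None passed an FDR of 5%, which 0.00424% of all genes did, and 20 of 33 were under an unadjusted p of 0.05, where 23.1% of all genes were. The fold change was negative for 30 of the 33 genes and for 15921 of all 23579 genes tested. The median was -0.37 on the log2 scale in the set against -0.08 over all genes tested. The groups overlapped for all 33 genes, where 0.144% of all genes did not overlap.

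Mvd, the mevalonate diphosphate decarboxylase that closes the pathway to isoprenoid units (chr8:122433601-122443422, minus strand, GRCm38), ran from 9.67 to 18.9 TPM in vehicle administered WT mice, with a median of 16.3. With IMN it ran from 6.85 to 11.6 TPM, with a median of 8.76. The 6 cortex-rich vehicle mice lay above every IMN administered mouse, and vehicle mice 6 and 8 lay among them. The mean fell from 15.5 ± 3.59 to 8.83 ± 1.56 TPM (SD, n = 8 each), a log2 fold change of -0.73 (SE 0.14, limma, adjusted p = 0.132).
Mvk, the mevalonate kinase, was at 9.77 to 21.5 TPM with vehicle (median 13) and 6.86 to 13.1 TPM with IMN (median 9.19), a log2 fold change of -0.51 (SE 0.14, limma, adjusted p = 0.141). The other 5 genes of the mevalonate pathway had fold changes from -0.21 (Acat2, which joins acetyl units) to -0.76 (Hmgcs1). Of these 5, 4 were under a p of 0.05, where 23.1% of all genes were. Hmgcs1 showed the widest spread. It ran from 57 to 163 TPM with vehicle (median 140) and from 39.3 to 116 TPM with IMN (median 61), and the highest values with IMN, 116 and 96.7 TPM, were those of the cortex-rich mice 5 and 8. Its fold change of -0.76 (SE 0.27, limma, adjusted p = 0.145) was the largest of the set and just missed the nominal threshold.

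From squalene to cholesterol, all 11 genes had negative fold changes, as did 15921 of all 23579 genes tested, and their median was -0.38. Under a p of 0.05 were 8 of the 11, where 23.1% of all genes were. Cyp51, the lanosterol demethylase, was at 18.5 to 38.5 TPM with vehicle (median 31.4) and 13.9 to 27 TPM with IMN (median 21.1), a log2 fold change of -0.54 (SE 0.17, limma, adjusted p = 0.141). It was the gene of this route under a p of 0.01. Sqle, the squalene epoxidase, was at 32.9 ± 13.5 TPM with vehicle and 19.6 ± 8.45 TPM with IMN, and its fold change of -0.69 had an interval that nearly reached 0 (95%, -1.30 to -0.08). Lss, the cyclase that forms lanosterol, had the smallest difference of the route (-0.23, interval -0.48 to 0.01).

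Among the regulators, Insig1, which retains SCAP and SREBP when sterols are plentiful and is itself an SREBP target, was at 20.1 to 51.4 TPM with vehicle (median 36.5) and 14 to 30.5 TPM with IMN (median 22.4). Its log2 fold change was -0.58 (SE 0.19, limma, adjusted p = 0.141). Srebf2 and Scap had fold changes of -0.28 and -0.21, and Insig2 one of -0.17 with an interval that held 0. Srebf1 had a fold change of 0.07 (interval -0.30 to 0.43). In fatty acid synthesis, Fasn, the fatty acid synthase, was at 56.9 to 87.8 TPM with vehicle (median 65.1) and 40.5 to 66 TPM with IMN (median 50.3), a log2 fold change of -0.45 (SE 0.11, limma, adjusted p = 0.141). The other 6 genes of this list, among them Acaca, which makes malonyl-CoA, and the desaturases Scd1 and Scd2, had fold changes from -0.29 to -0.09. None of these was under a p of 0.05, where 23.1% of all genes were. The sterol exporters went the other way in value. Abca1 was at 5.37 ± 1.00 TPM with vehicle and 6.43 ± 0.542 TPM with IMN (log2 fold change 0.23, limma, adjusted p = 0.175), and Abcg1 had a fold change of 0.05. Scaling the mice to each other by the median of ratios, which moved the median of all genes from -0.08 to 0.00134, gave 5 lower genes and 1 higher, Abca1, where 6.01% of all genes were called, and quantile normalization gave 4 lower and again Abca1 higher, where 5.85% were.

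**Figure D1:**
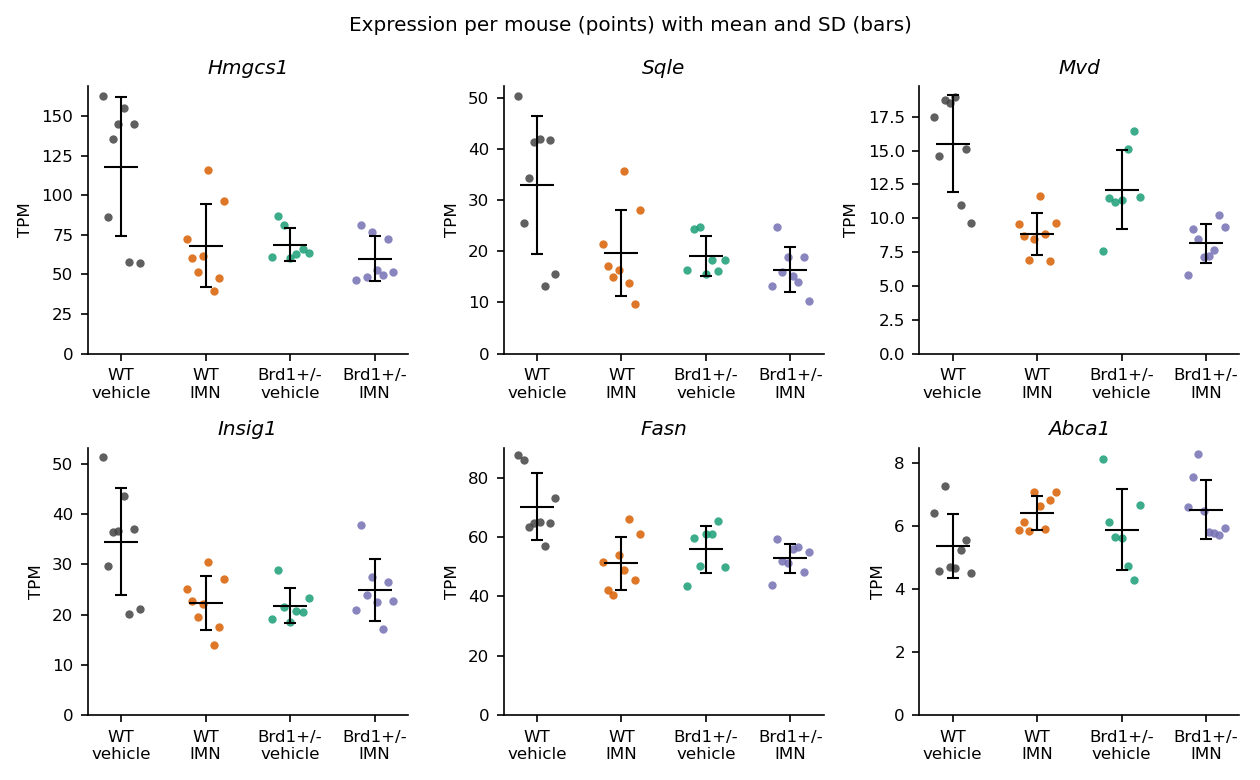
TPM of 6 genes in each mouse (points) by genotype and treatment, with the group mean and SD (bars). Hmgcs1, Sqle, Mvd, Insig1 and Fasn had their highest means in vehicle administered WT mice, where mice 6 and 8 lay low for Hmgcs1 (58.1 and 57 TPM), while Abca1 did not.

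**Figure D2:**
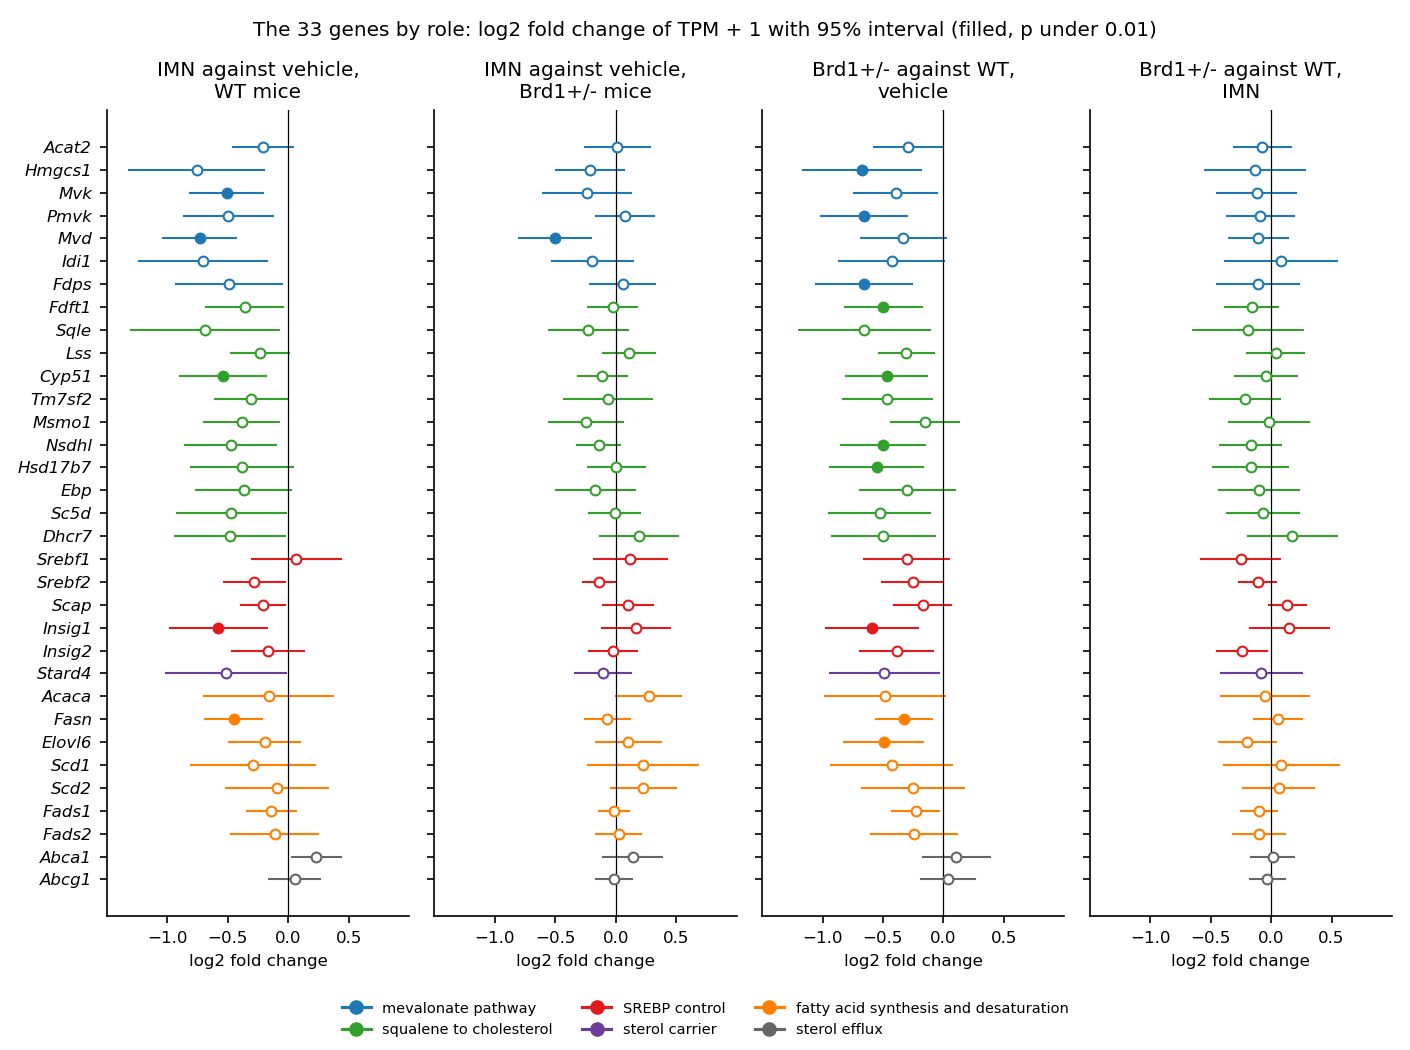
Log2 fold change of TPM + 1 with its 95% interval for the 33 genes, ordered and colored by role, in the 4 comparisons of 2 groups, with filled points where p was under 0.01. There were 5, 1, 10 and 0 filled points from left to right.

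These differences moved with the content of the punches. In the same comparison all 10 cortical markers had negative fold changes (median -1.94, 1 called, Emx1), all 10 striatal markers positive ones (median 1.48, 0 called) and all 10 astrocyte markers negative ones (median -0.16, 0 called). Of the erythrocyte markers 5 of 5 had negative fold changes (median -0.54, 2 called, Hba-a1 and Hba-a2), and of the microglia markers 9 of 10 positive ones (median 0.17, 1 called, Trem2), while 1 of 8 endothelium markers (Cldn5, lower) and 1 of 3 measured choroid plexus and ependyma markers (Kl, higher) were called. With the cortical markers as a covariate, 2 of the 33 genes, Mvd (-0.47) and Fasn (-0.37), remained under a p of 0.01, where 1.34% of all genes were called, and the median of the set was -0.09 against -0.02 over all genes. With the striatal markers as a covariate Mvd alone remained (-0.63), where 1.28% of all genes were called, with 31 of 33 fold changes negative and a median of -0.23. Without the cortex-rich mice, which left 2 vehicle and 6 IMN administered WT mice, 0 genes were called, where 2.09% of all genes were, the median was 0.02, and Mvd was at -0.31. The part of the cortical content in the lower sterol genes was not tested beyond these values. The count also rested on single mice. It was 4 without vehicle mouse 5 or 7 or IMN mouse 2 or 4 (3.88 to 4.58% of all genes called in the same fits) and 3 without vehicle mouse 1 or 4 or without IMN mouse 3, 6 or 7 (4.07 to 4.78%). It was 9 without IMN mouse 8 (7.81%), 12 without IMN mouse 5 (10.3%), 13 without vehicle mouse 6 (13.6%) and 15 without vehicle mouse 8 (15.3%). Mvd, Mvk and Fasn kept a p under 0.01 with each of the 16 mice left out, while Cyp51 did so in 10 and Insig1 in 6 of the 16.

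**Figure D3:**
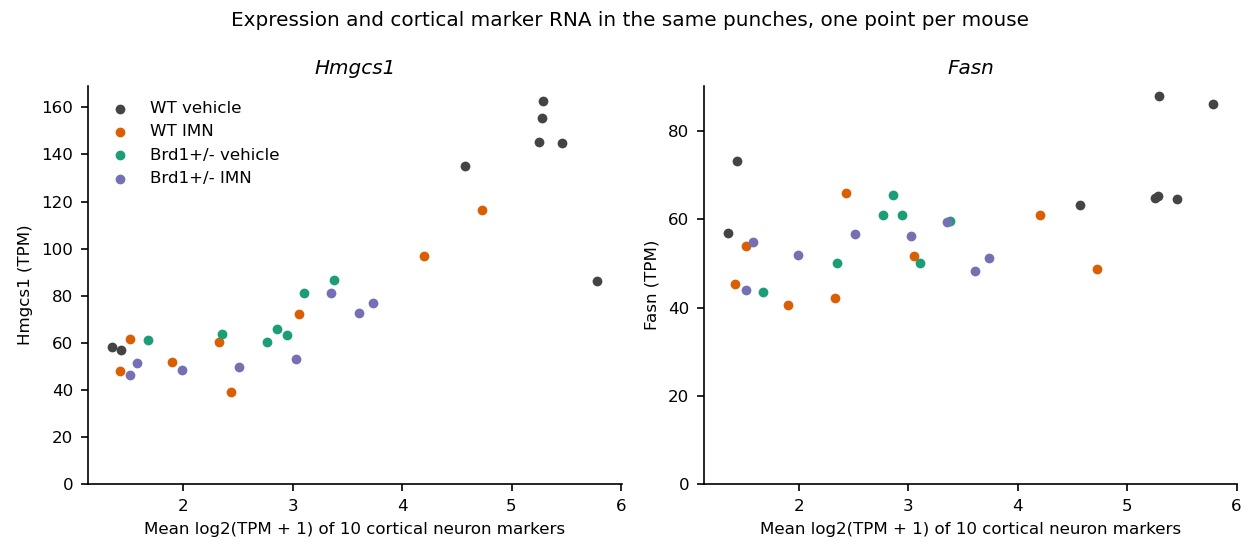
TPM of Hmgcs1 (left) and Fasn (right) against the mean log2(TPM + 1) of 10 cortical neuron markers, with 1 point per mouse colored by group. Hmgcs1 was between 46.2 and 61.5 TPM in the 6 mice with the lowest marker means and between 86.1 and 163 TPM in the 6 cortex-rich vehicle administered WT mice.

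In Brd1+/- mice with IMN, Mvd was the only gene of the set called, as lower, and this share was near that of all genes. Mvd was the 1 gene of 33 under a p of 0.01, 3.03% of the set, where 1.83% of all genes were called, 0.964% as lower and 0.869% as higher. None passed an FDR of 5% in limma, and 3 genes were under an unadjusted p of 0.05, where 7.09% of all genes were. Mvd ran from 7.59 to 16.5 TPM with vehicle (median 11.5) and from 5.8 to 10.2 TPM with IMN (median 8.06). Vehicle mouse 1 lay within the IMN administered group and the other 6 vehicle mice above it. The mean fell from 12.1 ± 2.9 (SD, n = 7) to 8.14 ± 1.46 TPM (SD, n = 8), a log2 fold change of -0.51 (SE 0.14, limma, adjusted p = 0.408). Next by p were Srebf2 (-0.14, SE 0.06, limma, adjusted p = 0.678) and Acaca (0.27, SE 0.13, limma, adjusted p = 0.693), neither under a p of 0.01. Over the set, 18 fold changes were negative and 15 positive, where 10505 and 12515 of all 23020 genes tested were. The median was -0.01 against 0.01 over all genes. Hmgcs1 was at 68.8 ± 10.6 TPM with vehicle and 60 ± 14.4 TPM with IMN (-0.22, interval -0.50 to 0.07), and Insig1 at 21.8 ± 3.47 and 24.9 ± 6.12 TPM (0.16, interval -0.12 to 0.44). The groups overlapped for all 33 genes, where 0.0999% of all genes did not.

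Mvd in Brd1+/- mice kept a p under 0.01 in all 14 other settings tried, with fold changes from -0.56 to -0.50, and with each of the 15 mice left out, with fold changes from -0.60 to -0.43. Without the cortex-rich mice it was at -0.53. In this comparison 7 of the 10 cortical markers (median -0.05, 0 called) and all 10 striatal markers (median -0.19, 1 called, Drd1) had negative fold changes. The 10 oligodendrocyte markers all had positive ones, from 0.33 to 0.61 (0 called). Their sum ran from 1380 to 4105 TPM with vehicle and from 1277 to 7559 TPM with IMN. Of the oligodendrocyte precursor markers 6 of 7 were positive (median 0.23, 0 called). Of these markers 2 were under an unadjusted p of 0.05, where 7.09% of all genes were. With the oligodendrocyte markers as a covariate, 6 of the 33 genes were lower at a p under 0.01, where 1.86% of all genes were called. These were Hmgcs1 (-0.37), Mvd (-0.56), Idi1, the isopentenyl diphosphate isomerase (-0.38), Msmo1, the sterol C4 methyl oxidase (-0.41), Nsdhl, the sterol dehydrogenase of the same step (-0.23), and Ebp, a sterol isomerase (-0.36). All of these but Mvd missed the threshold without that covariate. The count was 2 without IMN mouse 6 (2.18% of all genes called in the same fit), and also 2 when mouse numbers entered as a block (2.15%), which added Acaca as higher.

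**Figure D4:**
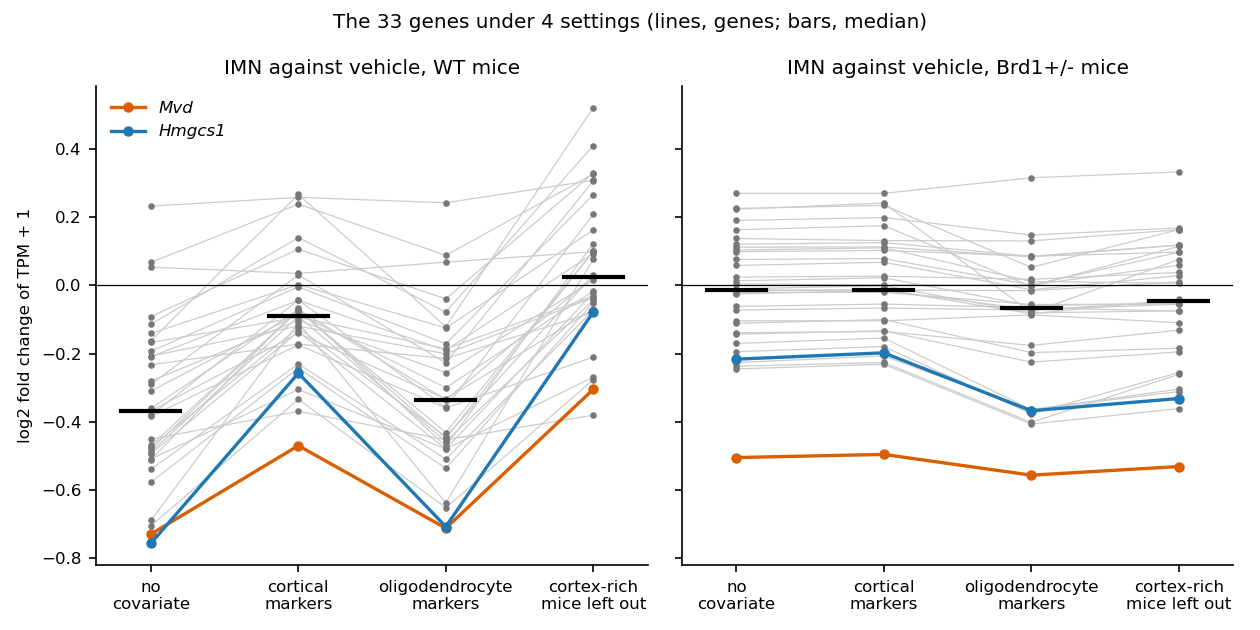
Log2 fold change with IMN of each of the 33 genes (gray points joined by lines) in WT (left) and Brd1+/- mice (right) without a covariate, with the cortical or oligodendrocyte markers as a covariate, and without the cortex-rich mice, with the median as a bar. In WT mice the median moved from -0.37 to -0.09 with the cortical covariate and 0.02 without the cortex-rich mice, and in Brd1+/- mice it stayed between -0.07 and -0.01 while Mvd lay near -0.5.

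Under vehicle, some of these genes were lower in Brd1+/- than in WT mice. Of the 33 genes, 10 were lower and 0 higher at a p under 0.01, which is 30.3% of the set, where 13.6% of all genes were called, 12.1% as lower and 1.47% as higher. They were Hmgcs1, Pmvk and Fdps of the mevalonate pathway, Fdft1, Cyp51, Nsdhl and Hsd17b7 of the sterol route, 7 of the 18 genes of these routes, and Insig1, Fasn and Elovl6. None passed an FDR of 5%, and 21 were under an unadjusted p of 0.05, where 30.9% of all genes were. Negative fold changes were found for 31 of 33 genes and for 16897 of all 23200 genes tested, with medians of -0.43 and -0.13. The exporters Abca1 (0.11) and Abcg1 (0.04) were the exceptions in the set. The groups overlapped for all 33 genes, where 0.289% of all genes did not. The vehicle administered WT mice are the same animals as in the comparison with IMN.

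Pmvk, the phosphomevalonate kinase, had the smallest p. It was at 18.3 to 40.4 TPM in WT (median 33.5) and 13.9 to 21.8 TPM in Brd1+/- mice (median 19.5), a log2 fold change of -0.66 (SE 0.17, limma, adjusted p = 0.0556). Fdps, the farnesyl diphosphate synthase, had the same fold change (-0.66, SE 0.19, limma, adjusted p = 0.0556), from 32.8 ± 10.4 to 19.7 ± 3.37 TPM. Fdft1, the squalene synthase that commits the pathway to sterols, was at 62.2 ± 14.7 and 43.1 ± 6.55 TPM (-0.50, limma, adjusted p = 0.0582).
Insig1 was at a median of 36.5 TPM in WT and 20.6 TPM in Brd1+/- mice (18.6 to 28.8), a log2 fold change of -0.59 (SE 0.18, limma, adjusted p = 0.0583). Hmgcs1 in Brd1+/- mice held between 60.4 and 86.7 TPM (median 63.8), and in WT mice it was above that range in 5 mice, within it in mouse 2 and below it in mice 6 and 8, giving -0.68 (SE 0.23, limma, adjusted p = 0.0727). Elovl6, which lengthens palmitate, had a fold change of -0.49 (limma, adjusted p = 0.0618), Hsd17b7 one of -0.55 (adjusted p = 0.0683), Nsdhl one of -0.50 (adjusted p = 0.0681), Cyp51 one of -0.47 (adjusted p = 0.0697) and Fasn one of -0.32 (adjusted p = 0.0714), all in limma. Mvd missed the threshold here (-0.33, interval -0.68 to 0.02), as did Mvk (-0.39, interval -0.74 to -0.05), whose lowest value of 5.87 TPM, in Brd1+/- mouse 1, stood apart from 9.87 TPM or more in the other Brd1+/- mice.

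All 10 cortical markers had negative fold changes in this comparison too (median -1.94, 1 called, Emx1), all 10 striatal markers positive ones (median 1.63, 1 called) and all 10 oligodendrocyte markers negative ones (median -0.35, 0 called). Of the astrocyte markers 9 of 10 were negative (median -0.19, lowest -0.74, 0 called), and so were 6 of 7 oligodendrocyte precursor markers (median -0.16, 0 called), while all 10 microglia markers had positive fold changes (median 0.18, 1 called, Trem2). With the astrocyte markers as a covariate 4 of the 33 genes were called, where 7.54% of all genes were. With the cortical covariate 1 gene of the set remained, Pmvk (-0.31), where 2.41% of all genes were called, and the median was -0.13. With the striatal covariate 0 were called, where 1.48% of all genes were, while 32 of 33 fold changes were negative with a median of -0.28. Without the cortex-rich mice, which left 2 WT mice, the median was 0.12, 26 of 33 fold changes were positive, Hmgcs1 was at 0.24, and Fads2 was the 1 gene called, as higher, where 0.892% of all genes were called. Scaling the mice to each other by the median of ratios moved the median of all genes from -0.13 to -0.000773 and left 3 of the 10 genes called, Pmvk, Fdps and Insig1, where 9.19% of all genes were called, and the set kept a median of -0.24 with 29 of 33 negative. Quantile normalization left Pmvk and Fdps, where 9.52% of all genes were called, with a median of -0.23 and again 29 negative. The genotype and the cortical content of the punches cannot be told apart in these mice. The count was 3 without Brd1+/- mouse 1 and 4 without WT mouse 4 or 7 (9.0 to 9.97% of all genes called in the same fits), 5 without WT mouse 1 or 5 or Brd1+/- mouse 4, 5, 6 or 7 (8.89 to 12.1%), 6 without WT mouse 3 (12.4%), 16 without WT mouse 6 (19.9%) and 17 without WT mouse 8 (22.4%). Pmvk and Fdps kept a p under 0.01 with each of the 15 mice left out.

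With IMN, the genotypes did not differ detectably in these genes. None of the 33 was under a p of 0.01, where 0.703% of all genes were called, 0.514% as lower and 0.189% as higher. In limma 1 was under an unadjusted p of 0.05, where 3.92% of all genes were, and none passed an FDR of 5%, which 0.00428% of all genes did. This was Insig2, the second INSIG protein, at 27.2 ± 3.63 TPM in WT and 22.9 ± 3.45 TPM in Brd1+/- mice (-0.24, SE 0.10, limma, adjusted p = 0.998). Next were Scap (0.14) and Elovl6 (-0.20), both with an adjusted p of 0.998 in limma. The median fold change was -0.09 against -0.03 over all genes, and the groups overlapped for all 33 genes, where 0.0129% of all genes did not. Intervals were wide enough to hold differences of some size, for example -0.55 to 0.28 for Hmgcs1 and -0.35 to 0.14 for Mvd. The count was 0 in all 14 other settings and 1 without WT mouse 7 (0.665% of all genes called in the same fit). The cortical markers had a median fold change of -0.07 here, with 0 called. All 5 erythrocyte markers were higher, each under an unadjusted p of 0.05 (median 0.49), and 1 of them (Alas2) was called. All 10 oligodendrocyte markers had positive fold changes (median 0.20, 0 called).

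The interaction of genotype and IMN asked whether the effect of IMN differed between Brd1+/- and WT mice. Insig1 was the 1 gene of 33 under a p of 0.01 (3.03% of the set), where 3.74% of all genes were called, 2.97% with a higher and 0.78% with a lower effect in Brd1+/- mice. Its fold change with IMN was -0.58 in WT and 0.16 in Brd1+/- mice, a difference of 0.74 (SE 0.24, limma, adjusted p = 0.261). Pmvk (0.57, SE 0.22, limma, adjusted p = 0.261) and Fasn (0.38, SE 0.15, limma, adjusted p = 0.261) followed, both under a p of 0.05 and above 0.01. For Mvd the difference was 0.22 (interval -0.19 to 0.64, limma, adjusted p = 0.594), so its fall was not shown to differ between the genotypes. None passed an FDR of 5%, and 8 were under an unadjusted p of 0.05, where 16.2% of all genes were. The differences were positive for 31 of 33 genes and for 17060 of all 25394 genes tested, with medians of 0.33 and 0.09. The 10 cortical markers were positive as well (median 1.91, 0 called). All 10 oligodendrocyte markers (median 0.55), 6 of 7 oligodendrocyte precursor markers (0.36), 8 of 10 astrocyte markers (0.13) and all 5 erythrocyte markers (0.37) were positive too, while all 10 striatal markers (-1.62, each under an unadjusted p of 0.05) and all 10 microglia markers (-0.23) were negative, with 0 called in any of these lists. With the cortical covariate Insig1 was at 0.42, above a p of 0.01, and 0 genes were called, where 0.957% of all genes were. Without the cortex-rich mice 0 were called, where 0.645% of all genes were, Insig1 was at 0.17 and the median of the set was -0.15. The count was 4 without WT vehicle mouse 6 or 8 (9.28 and 10.2% of all genes called in the same fits), 3 without Brd1+/- vehicle mouse 6 or WT IMN mouse 8 (3.71 and 4.98%), and 2 without WT IMN mouse 5 or 6 (6.62 and 2.64%) or Brd1+/- IMN mouse 1 or 4 (3.86 and 3.07%).

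Within groups the genes varied together from mouse to mouse. After the group means were subtracted, 26 of the other 32 genes correlated with Hmgcs1 over the 31 mice at an adjusted p under 0.05 (two-sided permutation test, Benjamini-Hochberg over 41 correlations). Their r was 0.433 or more, which 23.8% of 25393 other genes reached, and the median r was 0.75 in the set and 0.172 over all genes. The closest were Sc5d, the lathosterol oxidase (r = 0.955, rho = 0.916, and r = 0.939 without the 2 mice farthest from the median of Hmgcs1), Sqle (r = 0.945, rho = 0.934, and r = 0.927 without these mice) and Cyp51 (r = 0.943, rho = 0.909, and r = 0.925 without them), each with a permutation p of 1e-05, the smallest these can give, and an adjusted p of 3.73e-05. Insig1 followed at r = 0.92 (rho = 0.935, permutation p = 1e-05, adjusted p = 3.73e-05, and r = 0.906 without these mice). At the other end were Insig2 (r = 0.0553, rho = 0.00565, permutation p = 0.827 for r, and r = -0.0964 without the 2 mice), Fasn (r = 0.0911, rho = 0.149, permutation p = 0.666, and r = 0.158 without them) and Abca1 (r = 0.233, rho = 0.239, permutation p = 0.204, and r = 0.17 without them), which with Scap, Abcg1 and Lss had an adjusted p above 0.05. For Insig2, Fasn and Abca1 the sign turned negative under median-of-ratios scaling and quantile normalization. Mvd lay between, at r = 0.646 (rho = 0.615, permutation p = 0.00023, adjusted p = 0.000449, and r = 0.534 without the 2 mice). The vehicle administered WT mice fell into 6 cortex-rich mice and 2 others, so the correlations were repeated over the 23 mice of the other groups, where 22 of 32 genes passed at an r of 0.438 or more, which 17.5% of all genes reached, and Sc5d was at r = 0.941, Sqle at 0.905, Cyp51 at 0.918 and Mvd at 0.438. Hmgcs1 also correlated with the mean of the cortical markers (r = 0.838, rho = 0.782, permutation p = 3e-05, adjusted p = 8.79e-05, r = 0.775 without the 2 mice and 0.837 over the 23 mice), the astrocyte markers (r = 0.74, rho = 0.671, permutation p = 0.00011, adjusted p = 0.000226, r = 0.667 without the 2 mice) and the oligodendrocyte markers (r = 0.668, rho = 0.735, permutation p = 0.00028, adjusted p = 0.000499, r = 0.663 without the 2 mice), and with the oligodendrocyte precursor markers (r = 0.642, rho = 0.66, permutation p = 0.00065, adjusted p = 0.001025, r = 0.623 without the 2 mice and 0.627 over the 23 mice). With the striatal markers r was -0.245 over the 31 mice (rho = -0.414, permutation p = 0.414, adjusted p = 0.478, r = -0.0856 without the 2 mice) and -0.68 over the 23 mice (adjusted p = 0.00727). The part of these markers in the covariation of the genes was not tested.

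**Figure D5:**
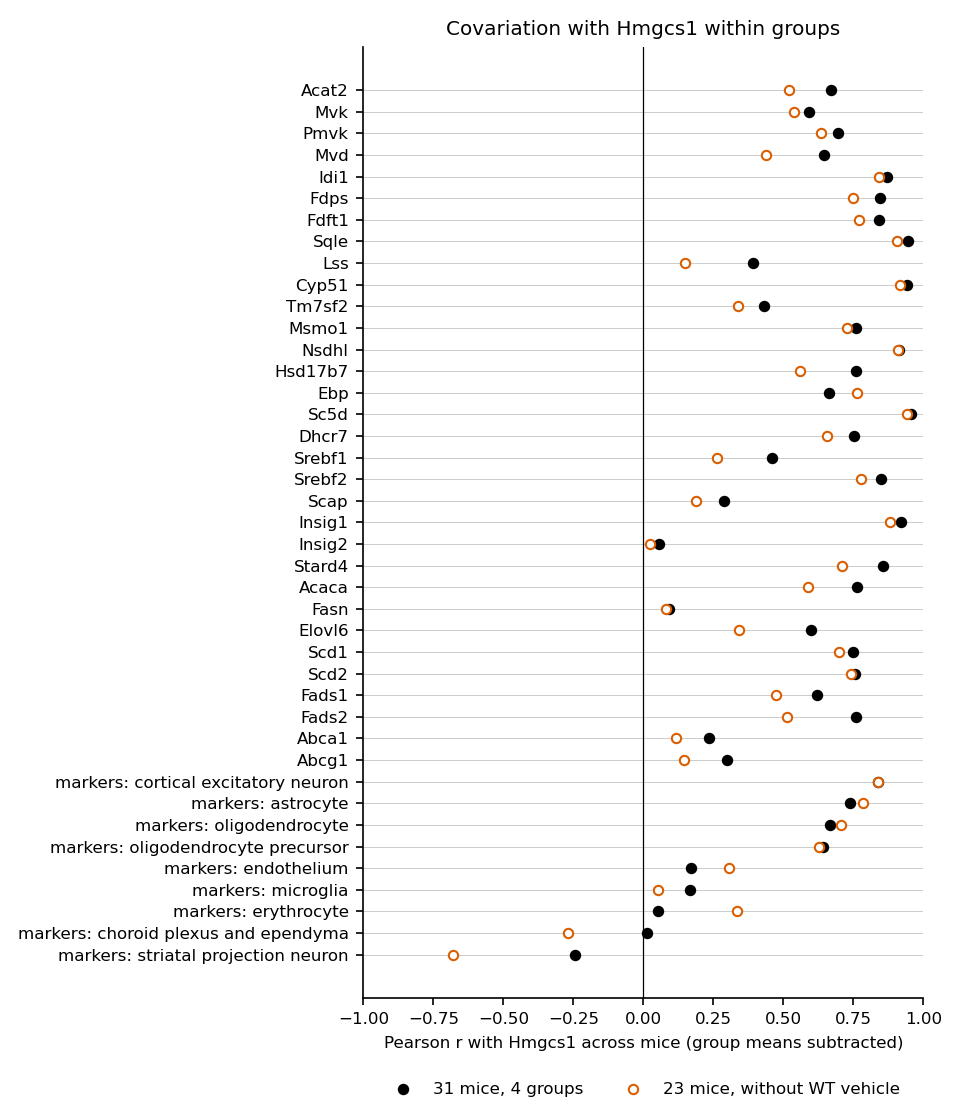
Pearson r of Hmgcs1 with each of the other 32 genes and with 9 means of cell type markers across mice, after subtracting group means, over 31 mice (filled) and over 23 mice without the vehicle administered WT group (open). Most genes of the sterol route lay above 0.6 over 31 mice, Insig2 and Fasn lay near 0, and the cortical markers lay at 0.838.

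Of 44 further genes of sterol and lipid metabolism, 7 were lower and 1 higher at a p under 0.01 with IMN in WT mice, which is 18.2%, where 6.95% of all genes were called. The lower ones included Tmem97, the sigma-2 receptor (12.3 to 6.79 TPM, log2 fold change -0.72, limma, adjusted p = 0.141), and the oxysterol-binding protein gene Osbpl1a (155 to 76.9 TPM, -0.97, limma, adjusted p = 0.141), with Pcyt2, Nfyb, Aacs and Tecr. Mbtps1, the protease that makes the first cut in SREBP, was the one higher (43 to 59.6 TPM, 0.48, limma, adjusted p = 0.141). Under vehicle 9 of the 44 were called between the genotypes (20.5%, where 13.6% of all genes were called), among them Tmem97, Pcyt2, Nfyb, Osbpl1a, Aacs, Me1 and Tecr as lower and Mbtps1 as higher in Brd1+/- mice. With IMN in Brd1+/- mice 2 of the 44 were called (4.55%, where 1.83% of all genes were). Cyp46a1, the neuronal cholesterol 24-hydroxylase, was lower (332 to 277 TPM, -0.27, limma, adjusted p = 0.526) and Hsd17b12, a ketoreductase of fatty acid elongation, higher (28.2 to 37.6 TPM, 0.44, limma, adjusted p = 0.526). With IMN 0 of the 44 differed between the genotypes at a p under 0.01 in limma, and 2 of the 44 (4.55%, where 3.74% of all genes were called), Osbpl1a and Tecr, had a positive interaction at that threshold (1.02 and 0.67, both with an adjusted p of 0.261 in limma). The calls among the 44 also differed between settings, and the part of the cortical content in them was not tested. In WT mice with IMN and between the genotypes under vehicle the cortical markers had a median fold change of -1.94. The striatal markers had medians of 1.48 and 1.63. With the cortical covariate 0 of the 44 were called with IMN in WT mice (1.34% of all genes called in the same fit) and 1 between the genotypes under vehicle (2.41%). Without the cortex-rich mice the counts were 1 (2.09%) and 0 (0.892%). In Brd1+/- mice with IMN and for the interaction 0 of the 44 were called with the cortical covariate (2.13 and 0.957%) or without these mice (1.71 and 0.645%).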

How the data were processed

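RNA from the right CPu of 31 mice was sequenced, and the authors deposited 1 table of TPM with 31 columns, 1 per mouse. Per the submitters' processing notes, HISAT2 2.1.0, StringTie 1.3.4 and GRCm38 were used, with FastQC and Trimmomatic. Each mouse summed to 999787 to 999918 TPM. TPM keeps no reads, so depth per mouse is unknown, no counting interval can be given, and the edgeR analysis of the study, which needs counts, was not run. Whether counting used strand is not given in the sources used here.

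Symbols and positions came from GENCODE M21 (GRCm38), which gave symbols for 52403 identifiers and none for 233. A gene entered a test when at least 7 of its mice exceeded 0.1 TPM, and values were tested as log2(TPM + 1) with limma 3.58.1 (R 4.3.3, trend in the prior variance, two-sided, Benjamini-Hochberg over all genes tested), so a fold change is on that scale and understates changes of low genes. Each comparison held only its own mice, 4 groups for the interaction. A gene was called at a nominal p under 0.01, and an FDR of 5% is given beside it. The rule named the genes called, or the 3 with the smallest p where fewer than 3 were, and other genes, such as Hmgcs1 with IMN in WT mice, were named after their values were seen. The 33 genes, the 44 further genes and the 9 lists of cell type markers were chosen with earlier results of these data known. Mouse numbers were not taken to pair mice across groups. Correlations used 100000 permutations (Python 3.11.15, SciPy 1.17.1). The tests were also tried on simulated data. Each mouse is a separate animal. The alternatives were a pseudocount of 0.1, other filters, scalings and variance models, marker covariates, the mouse number as a block and leaving out each mouse. The striatal covariate, leaving out cortex-rich mice, and correlations without the WT vehicle group were chosen after seeing the data. Values of some of the 44 further genes are not reported here.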

Additional observations from a re-analysis of the deposited data

Results flagged for a closer look

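Of 172 groups of values (each of the 33 genes, the sums of 9 marker lists and a sum of Y-linked genes, in each of the 4 groups), 15 held a mouse whose gap to the others exceeded Dixon's 95% limit, where chance flags about 1 in 20 groups. WT vehicle mouse 1 stood apart in Scd2 (840.4 TPM, against 286 to 513 TPM in the other mice of its group), Scd1 (173.8 TPM, against 45.2 to 104), Srebf1 (50.0 TPM, against 20.9 to 31.8) and in the oligodendrocyte precursor markers (485.7 TPM, against 123 to 264), and it had the highest sum of the oligodendrocyte markers of all mice, 9546 TPM. Brd1+/- vehicle mouse 1 was low in Tm7sf2, a sterol reductase (7.345 TPM, against 12.5 to 16.2), and in Mvk (5.867 TPM, against 9.87 to 12.7). Brd1+/- vehicle mouse 6 was high in Scap (59.73 TPM, against 38.5 to 46.4), and Brd1+/- IMN mouse 6 was low in Abcg1 (26.37 TPM, against 32.6 to 38). Among the marker sums, WT IMN mouse 5 was high in the cortical markers (1111 TPM, against 99.9 to 504) and Brd1+/- vehicle mouse 2 in the astrocyte markers (1084 TPM, against 930 to 983). Brd1+/- vehicle mouse 6 was high in the microglia markers (506.0 TPM, against 388 to 418) and in the choroid plexus and ependyma markers (33 TPM, against 9.82 to 11.5), and Brd1+/- IMN mouse 3 in the latter (22.19 TPM, against 8.89 to 15.1). The sum of 4 Y-linked genes stood apart in WT vehicle mouse 7 (26.79 TPM, against 0 to 0.188) and, at a far lower level, in Brd1+/- vehicle mouse 1 (0.1713 TPM, against 0.00901 to 0.0735).

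The interaction of genotype and IMN for Insig1 was 0.741 on the log2 scale, under an unadjusted p of 0.01 and not past an FDR of 5% (limma, adjusted p = 0.261). It was 1 of 33 genes called (3.03%, where 3.74% of all genes were), and it was no longer called with the cortical (0.42) or striatal (0.57) covariate or without the cortex-rich mice (0.17).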

How the results depend on the processing

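Of 333 values of 24 gene and comparison pairs named above under other settings, 254 kept their direction and side of a p of 0.01, 70 were no longer under it, 2 came under it and 7 changed sign. In the comparison of IMN in WT mice the count of 5 became 18 with sample weights (20.3% of all genes called in the same fit), 13 with all 4 groups in 1 fit (13.5%), 10 with the oligodendrocyte covariate (7.18%), 2 with the cortical and 1 with the striatal covariate and 0 without the cortex-rich mice, and the median became -0.0909 with the cortical covariate and 0.0247 without these mice. For IMN in Brd1+/- mice the count of 1 became 6 with the oligodendrocyte covariate (1.86%). For the genotypes under vehicle the count of 10 became 23 with sample weights (26.5%), 5 with the oligodendrocyte (9.27%), 4 with the astrocyte (7.54%), 1 with the cortical and 0 with the striatal covariate, 3 with median-of-ratios scaling, 2 with quantile normalization and 1 without the cortex-rich mice (0.892%), where the median was 0.12, and it was -0.13 with the cortical covariate. Without the cortex-rich mice Hmgcs1 (0.24), Fdft1 (0.0178), Cyp51 (0.12), Nsdhl (0.14), Hsd17b7 (0.14), Insig1 (0.0653) and Elovl6 (0.0032) turned positive. For the interaction the count of 1 became 12 with sample weights (13.6%) and 0 with the cortical (0.957%) or striatal covariate (0.52%) or without the cortex-rich mice (0.645%), and the median 0.0632 with the cortical covariate and -0.15 without these mice. The correlation with Hmgcs1 became -0.0437 for Abca1, -0.232 for Fasn and -0.145 for Insig2 with median-of-ratios scaling, and -0.158, -0.229 and -0.166 with quantile normalization. Leaving out each mouse gave -0.0285 (without WT vehicle mouse 6) and above for Fasn and -0.12 (without WT vehicle mouse 8) to 0.233 (without WT vehicle mouse 1) for Insig2. Leaving out each mouse gave counts of 3 to 15 (3.88 to 15.3% of all genes called in the same fits) and medians of -0.44 to -0.29 for IMN in WT mice, 1 to 2 (1.34 to 2.18%) and -0.04 to 0.01 for IMN in Brd1+/- mice, 3 to 17 (8.89 to 22.4%) and -0.51 to -0.36 for the genotypes under vehicle, 0 to 1 (0.55 to 1.09%) and -0.13 to -0.03 for the genotypes with IMN, 1 to 4 (2.16 to 10.2%) and 0.27 to 0.39 for the interaction, and 24 to 27 genes correlated with Hmgcs1. The cause of these changes was not tested. Mouse numbers shared between groups were not taken as pairs. In the 4 comparisons 2 of 8, 3 of 7, 0 of 7 and 2 of 8 pairs with the same number correlated above 0.1. In these, 1, 2, 0 and 2 mice correlated best with their own number. These correlations also hold the content of the punches, so they cannot decide whether the numbers paired mice. With the mouse number as a block the counts were 7, 2, 13, 0 and 1 in the 5 comparisons, where 5.08, 2.15, 17.7, 0.673 and 4.28% of all genes were called. Depth is unknown, so the precision of low genes cannot be separated from the spread between mice.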
